A study of Mus spretus with 12 samples.

Results

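The 38 genes described here encode complement and blood coagulation proteins. They were chosen by name, as factors made by hepatocytes or, for the 3 C1q subunits, by macrophages. That rule uses no measured value, but the choice was made with earlier results of these data known. All 38 are on the array, where 57 of its 56605 probes carry their names, and all 38 were among the 18678 genes tested. RNA came from liver of male SPRET/EiJ mice, an inbred strain of Mus spretus, which were 20 months old when the diets began and 22 months old when sampled, per the labels. Each of 3 groups has 4 one-colour arrays. Control mice ate Teklad chow with corn oil. The DDE group ate that chow for 60 days with 450 mg/kg of p,p'-DDE, a persistent breakdown product of the insecticide DDT, added in the oil. The must group ate the same p,p'-DDE chow and drank water holding Pedro Ximenez must, a grape juice, at 85 mg/L of polyphenols and 31 g/L of glucose and fructose. No group received must without p,p'-DDE, so an effect of must by itself cannot be told from a changed response to p,p'-DDE. The polyphenols and the sugars were always given together and cannot be told apart. The submitters mention 4 mice for control and 4 for must, but no label says that each array is a separate mouse. What the p-values measure is the spread from array to array, and some or all of it may be technical.

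Complement and coagulation are cascades of plasma proteases that circulate as inactive precursors and are cut in sequence when a trigger is recognised. In complement, C1q or the mannose-binding lectins recognise a target, their partner proteases cut C4 and C2, and the resulting convertases split C3 and lead to the membrane attack complex of C5b to C9. In coagulation, the contact system and tissue factor routes meet at factor X, prothrombin becomes thrombin, and thrombin turns fibrinogen into fibrin, which plasmin later dissolves. The hepatocyte is the main source of most of these proteins, several of which are acute-phase proteins, while C1q comes mainly from macrophages, in liver the Kupffer cells.

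Levels are log2 signals relative to the 75th percentile of the same array, so a level of 0 lies at that percentile. A gene was called when its limma adjusted p was under 0.05. Between 50.1% and 52.0% of the spots on an array were well above background, and the probe used for each member was so on all 12 arrays. In control, 37 of the 38 members lay above the 75th percentile and 20 above the 95th, C6 being the dim one. The bright end of the arrays differed between the groups: the 95th percentile stood 6.19 ± 0.03 (SD, n = 4) above the 75th in control, 6.08 ± 0.04 in the DDE group and 5.78 ± 0.04 in the must group. The dependence on how the arrays were put on a common scale is given as a range over 5 other scalings: quantile normalisation, normexp background correction, both together, centring on the median, and the values the authors deposited. Centring on the median raised the median change over all genes from -0.02 to 0.21 in the DDE group against control, from -0.04 to 0.10 in the must group against the DDE group, and from -0.05 to 0.32 in the must group against control. With it 81.4%, 66.3% and 73.2% of the genes called in these 3 comparisons were higher, against 48.4%, 40.2% and 44.8% with the 75th percentile. Quantile normalisation, alone or with normexp, and the deposited values gave 51.9% to 53.7%.

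The liver label held for its markers, and RNA of other tissues differed between the groups. The mean level of 14 hepatocyte markers was 8.31 ± 0.05 (SD, n = 4), 8.18 ± 0.15 and 8.12 ± 0.05 in the control, DDE and must groups. That of 12 exocrine pancreas markers was 4.99, 4.67 and 7.11, that of 10 skeletal muscle markers 4.15, 2.90 and 2.48, and that of 8 adrenal cortex markers 0.96, -2.62 and 1.58. The mean of 11 monocyte and neutrophil markers was 0.51, 0.33 and -0.75, while 5 platelet markers were at -2.15, -2.05 and -2.54. Endothelial markers (12 genes) were at 0.95, 0.91 and 0.95 and stellate cell markers (10 genes) at 1.59, 1.43 and 1.21. The sum of the hepatocyte markers' linear levels ranged over arrays from 6749 to 7599, from 4676 to 6511 and from 5371 to 5945. The part of these tissues in the changes below was not tested.

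The array reads each gene through probes of 60 bases made for the laboratory mouse. A few are printed here in lower case, as the array design gives them, 5' to 3'. Those of C1qa, C1qb and Mbl1, which fell, of Plg, which rose, and the upstream one of Fga are the brightest probes and gave the values of these genes below. Those of Masp1, C3, C4b and Kng1 and the downstream one of Fga are further kept probes of their genes, which did not give the genes' values; they are shown because probes of these genes disagreed, as described further on.
C1qa: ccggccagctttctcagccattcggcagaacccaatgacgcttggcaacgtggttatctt
C1qb: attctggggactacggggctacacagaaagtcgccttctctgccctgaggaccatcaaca
Mbl1: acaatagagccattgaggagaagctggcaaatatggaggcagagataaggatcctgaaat
Masp1: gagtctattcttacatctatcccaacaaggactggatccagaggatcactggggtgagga
Plg: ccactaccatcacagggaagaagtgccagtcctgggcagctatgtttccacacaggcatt
Fga, upstream probe: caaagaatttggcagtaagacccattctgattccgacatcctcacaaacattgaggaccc
Fga, downstream probe: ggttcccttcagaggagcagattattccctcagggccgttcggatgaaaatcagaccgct
C3: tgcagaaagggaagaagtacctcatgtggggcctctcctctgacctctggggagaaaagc
C4b: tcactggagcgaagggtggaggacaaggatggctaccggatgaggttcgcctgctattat
Kng1: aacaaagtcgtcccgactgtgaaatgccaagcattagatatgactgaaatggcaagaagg
In the mm9 coordinates of the files these lie at chr4:136452409-136452468 and chr4:136436578-136436637 on the minus strand for C1qa and C1qb, and at chr14:41967898-41970484 on the plus strand for Mbl1, across a splice junction. The printed Masp1 probe lies at chr16:23452460-23452519, minus strand, and the brightest one, which gave the gene's values, at chr16:23449609-23449668. Plg is read at chr17:12591031-12591090, plus strand. The Fga probes lie at chr3:82835678-82835737 and chr3:82837260-82837319, plus strand. The C3 and C4b probes lie at chr17:57343678-57343737 and chr17:34866361-34866420, minus strand. The Kng1 probe spans a junction within chr16:23077602-23079064, plus strand. Each printed probe reads through in 1 to 3 of its 3 forward frames without a stop codon. No probe of a member shares 20 bases with a probe of another gene. Transcripts were not searched, so whether a probe also reads a closely related gene was not tested. Exon annotation and mismatches with Mus spretus were not used here.

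With p,p'-DDE in the chow, most members that changed were higher. Of the 38 members, 26 were called in the DDE group against control (68.4%), where 50.2% of all genes tested were called. The count was 20 higher and 6 lower, where 24.3% of all genes were higher and 25.9% lower. Their median change was 0.15, against -0.02 over all genes. For 29 of the 38 the arrays of the groups did not overlap, where 46.4% of all genes did not overlap. The changes were small: 3 members, Masp1, Plg and C8a, were called with a change of at least 0.5 (log2), which 15.5% of all genes were. All 20 higher calls held under each of the 5 other scalings, while none of the 6 lower calls held under all of them. The other scalings gave 22 to 31 higher and 0 to 6 lower. Of the 12 members not called, 1, Kng1, stayed uncalled under every other scaling.

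Must added to p,p'-DDE gave fewer calls among the members. Against the DDE group, 15 of the 38 were called in the must group (39.5%), where 49.7% of all genes were. Of these, 4 were higher and 11 lower, where 20% of all genes were higher and 29.7% lower. The median change was -0.08, against -0.04 over all genes. The groups did not overlap for 16 members, where 44.5% of all genes did not overlap, and no member was called with a change of at least 0.5, which 15.2% of all genes were. Both counts depended on the scaling: 20 members were higher and 5 lower with quantile normalisation, 22 and 4 with normexp and quantile normalisation, 11 and 5 with median centring, 23 and 4 with the deposited values, and 4 and 8 with normexp alone. Of the 23 members not called, 6 stayed uncalled under every other scaling. The calls that held under every scaling were the rises of Masp1, F11, Klkb1 and Plg and the falls of C1qa, C1qb, C1qc and Mbl1.

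Between the must group and control, 27 of the 38 members were called (71.1%), where 71% of all genes were. The count was 17 higher and 10 lower, where 31.8% of all genes were higher and 39.2% lower. Their median change was 0.04, against -0.05 over all genes. The groups did not overlap for 26 members, where 65.1% of all genes did not overlap. A called change of at least 0.5 was found in 8 members, where 38.3% of all genes had one. All 17 higher calls held under each of the 5 other scalings, as did 4 of the 10 lower calls, those of the C1q subunits and Mbl1. With 4 of the other scalings 30 or 31 members were higher and 4 lower, and normexp alone gave 17 and 10. None of the 11 members not called stayed so under every other scaling. The 3 comparisons share arrays, so their values are set side by side below and are not independent. The arrays lay on 5 slides. Within the slides that held both groups, the differences had the sign of the call in every such slide for 25 of the 26 members called in the DDE group against control, 15 of the 15 called in the must group against the DDE group, and 27 of the 27 called in the must group against control. Cfb is the exception, since its DDE value is missing on a slide. These differences come from the same arrays as the calls. A member whose groups did not overlap must keep its sign on every slide, so the counts are no separate check. The share over all genes was not computed.

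**Figure D1:**
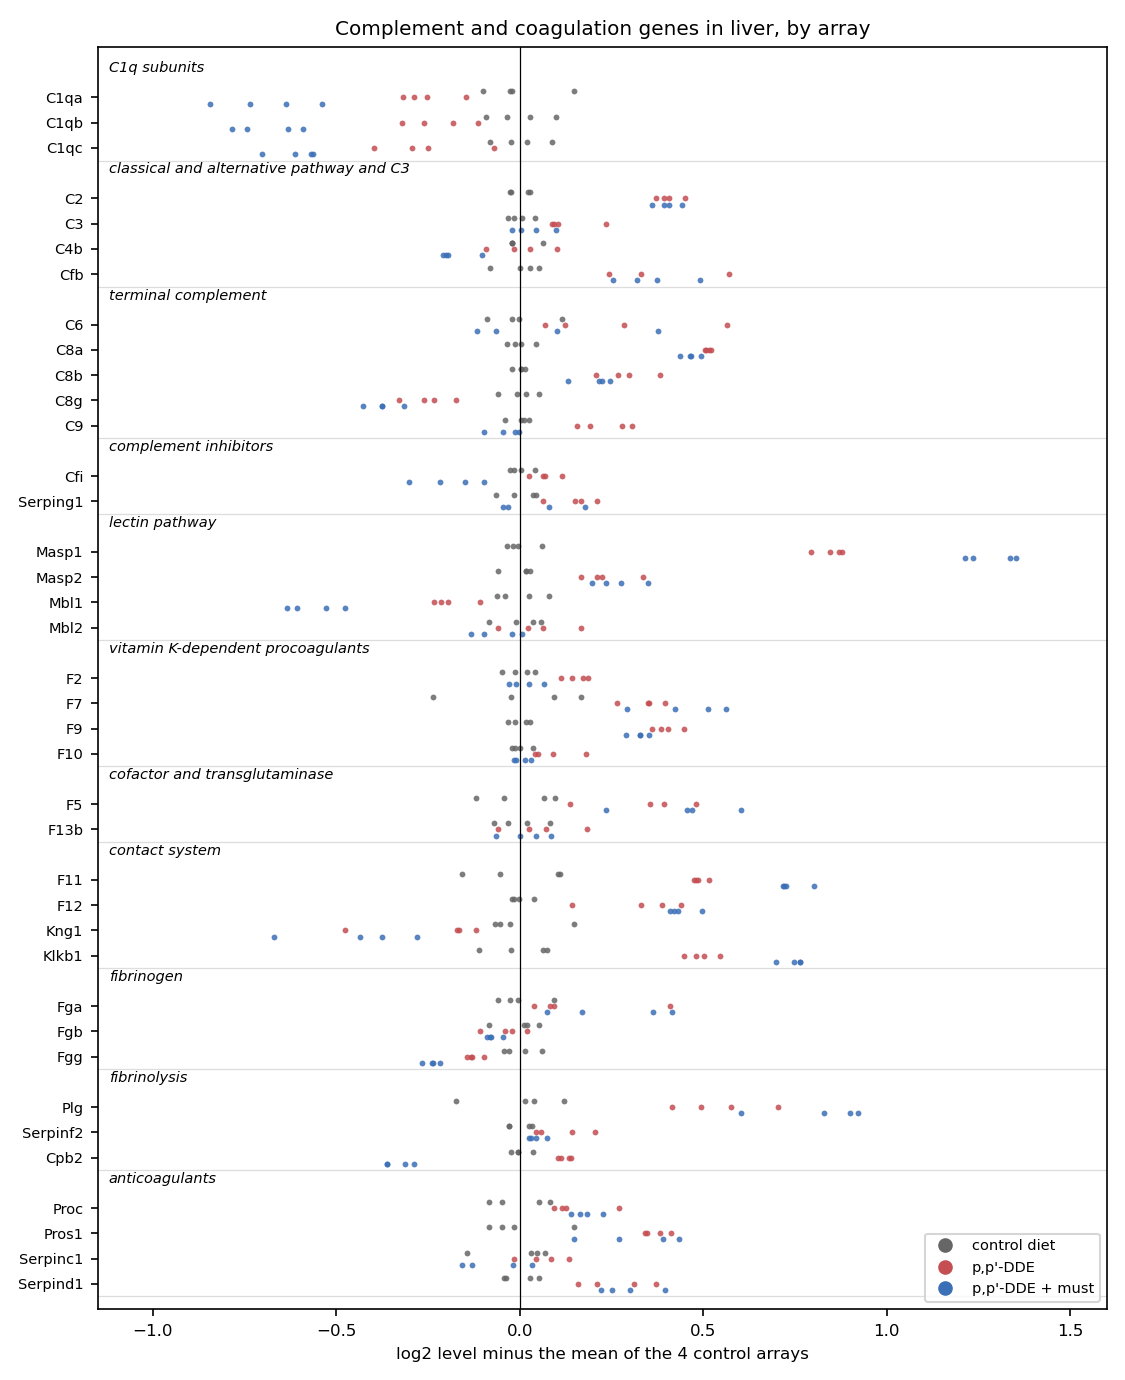
The log2 level of each of the 38 members on each of the 12 arrays, minus its mean over the 4 control arrays, grouped by role. Grey points are control, red points p,p'-DDE and blue points p,p'-DDE with must. The C1q subunits and Mbl1 lie to the left and Masp1, Plg, F11 and Klkb1 to the right, with the blue points farthest out.

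C1q, the recognition molecule of the classical pathway, is built from 3 chains encoded side by side on chromosome 4, and all 3 transcripts fell. C1qa read 2.52, 2.60, 2.60 and 2.77 in control, 2.48, 2.31, 2.37 and 2.34 in the DDE group and 1.78, 1.99, 1.89 and 2.09 in the must group. C1qb read 1.39, 1.33, 1.45 and 1.52 in control, 1.31, 1.16, 1.24 and 1.10 in the DDE group and 0.64, 0.79, 0.68 and 0.83 in the must group. C1qc read 3.31, 3.37, 3.41 and 3.48 in control, 3.32, 2.99, 3.10 and 3.14 in the DDE group and 2.69, 2.83, 2.78 and 2.82 in the must group. Every must array lay below every array of the other groups for all 3 subunits, and the DDE arrays lay below control except that C1qc overlapped on 1 array. C1qa was 1.61-fold lower in the must group than in control, a log2 change of -0.69 (SE 0.074, adjusted p = 6.19e-06). C1qb changed by -0.69 (SE 0.064, adjusted p = 1.82e-06) and C1qc by -0.61 (SE 0.069, adjusted p = 8.6e-06). Against the DDE group the falls were -0.44 (SE 0.074, adjusted p = 0.000536) for C1qa, -0.47 (SE 0.064, adjusted p = 0.000117) for C1qb and -0.36 (SE 0.069, adjusted p = 0.00119) for C1qc, and they held under all 5 other scalings (-0.44 to -0.29 for C1qa). In the DDE group against control C1qa changed by -0.25 (SE 0.074, adjusted p = 0.0151), C1qb by -0.22 and C1qc by -0.25. With median centring these 3 were -0.02, 0.01 and -0.02 and were not called, while the other 4 scalings kept the calls. Within the 3 slides that held arrays of both groups, the must group was lower than control in C1qa by a log2 change of -0.82 to -0.71.

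Other genes of macrophages and Kupffer cells, the resident macrophages of the liver, were lower as well. Of 16 such markers, 11 were lower and 1 higher in the DDE group against control, 12 lower and none higher in the must group against the DDE group, and 14 lower and 1 higher in the must group against control. Of all genes, 25.9%, 29.7% and 39.2% were lower in these 3 comparisons, and 24.3%, 20% and 31.8% higher. Under all 5 other scalings 3, 8 and 10 of the 16 markers stayed lower. Their mean level was 1.58 ± 0.03 (SD, n = 4), 1.31 ± 0.01 and 0.93 ± 0.05 in the 3 groups, and the sum of their linear levels ranged over the arrays from 153 to 163, from 144 to 150 and from 121 to 128. Clec4f, a lectin of Kupffer cells, changed by -0.28 in the DDE group and -0.60 in the must group, both against control, and Adgre1, which encodes F4/80, by -0.28 and -0.59. Mpeg1, which encodes perforin-2, was the marker that rose, by 0.40 and 0.50. The mean of the 3 C1q subunits minus the mean of the 16 markers was 0.90 ± 0.10 (SD, n = 4) in control, 0.93 ± 0.10 in the DDE group and 0.89 ± 0.14 in the must group, so the difference moved by less than its spread between arrays. In a bulk sample, fewer macrophages and less C1q RNA per macrophage cannot be told apart.

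**Figure D2:**
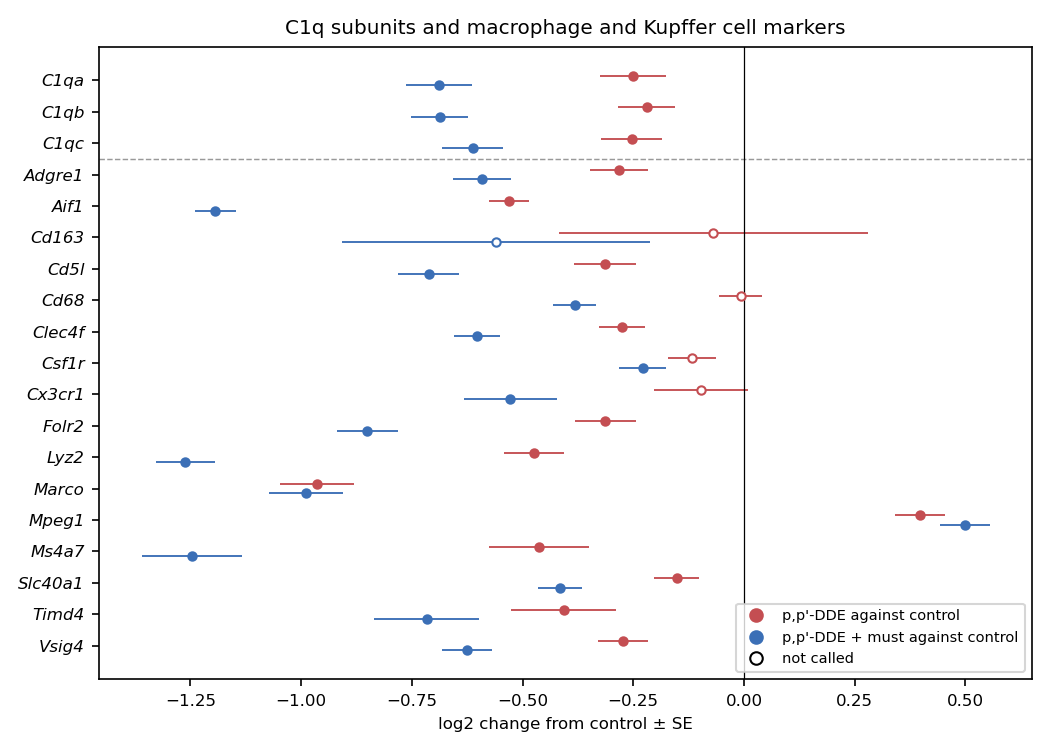
The log2 change from control, with its SE, of the 3 C1q subunits (above the dashed line) and of 16 macrophage and Kupffer cell markers, in the DDE group (red) and the must group (blue). Open symbols were not called. The subunits lie between -0.69 and -0.22, within the range of the markers, and Mpeg1 is the marker to the right of 0.

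The lectin pathway moved in both directions. Masp1 encodes a protease that starts the pathway once a lectin has bound. Among the brightest probes, which stand for the genes, that of Masp1 had the largest change of any member. Masp1 read 3.65, 3.74, 3.66 and 3.68 in control, 4.56, 4.48, 4.55 and 4.53 in the DDE group and 4.90, 5.02, 4.92 and 5.04 in the must group. The 3 groups did not overlap. It was 1.80-fold higher in the DDE group than in control, a log2 change of 0.85 (SE 0.045, adjusted p = 6.44e-08), and 1.35-fold higher again with must (0.44, SE 0.045, adjusted p = 1.45e-05), which made it 2.44-fold higher in the must group than in control (adjusted p = 7.62e-10). The scalings gave 0.70 to 1.07, 0.47 to 0.61 and 1.23 to 1.66 for these 3 changes, each called, and within slides the DDE group was higher than control by 0.81 to 0.88. Masp2, the protease that cuts C4 and C2, changed by 0.23 (SE 0.050, adjusted p = 0.00235) and 0.26 (SE 0.050, adjusted p = 0.000511) against control in the DDE and must groups, with 0.03 between these groups, not called, which 4 of the other scalings called higher (0.07 to 0.32).

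The recognition lectins did not share the rise of the proteases. Mbl1 encodes mannose-binding lectin A. Mbl1 read 5.10, 4.96, 4.98 and 5.05 in control, 4.91, 4.79, 4.82 and 4.81 in the DDE group and 4.41, 4.49, 4.38 and 4.54 in the must group. Again the 3 groups did not overlap, with must lowest. The change was -0.19 (SE 0.052, adjusted p = 0.0106) in the DDE group against control, -0.37 (SE 0.052, adjusted p = 0.000123) in the must group against the DDE group and -0.56 (SE 0.052, adjusted p = 1.65e-06) in the must group against control. The latter pair held under all 5 other scalings (-0.33 to -0.20 and -0.50 to -0.19), and the former was 0.04 and not called with median centring. Mbl2 encodes mannose-binding lectin C. Mbl2 read 8.34, 8.36, 8.29 and 8.22 in control, 8.24, 8.37, 8.47 and 8.33 in the DDE group and 8.31, 8.17, 8.21 and 8.28 in the must group. The groups overlapped and no comparison was called, with changes of 0.05, -0.11 and -0.06. In the must group against control Mbl2 was called higher under 4 of the other scalings, at 0.28 to 0.31, and in the DDE group against control under 3, within a range of 0.05 to 0.28 over all 5.

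**Figure D3:**
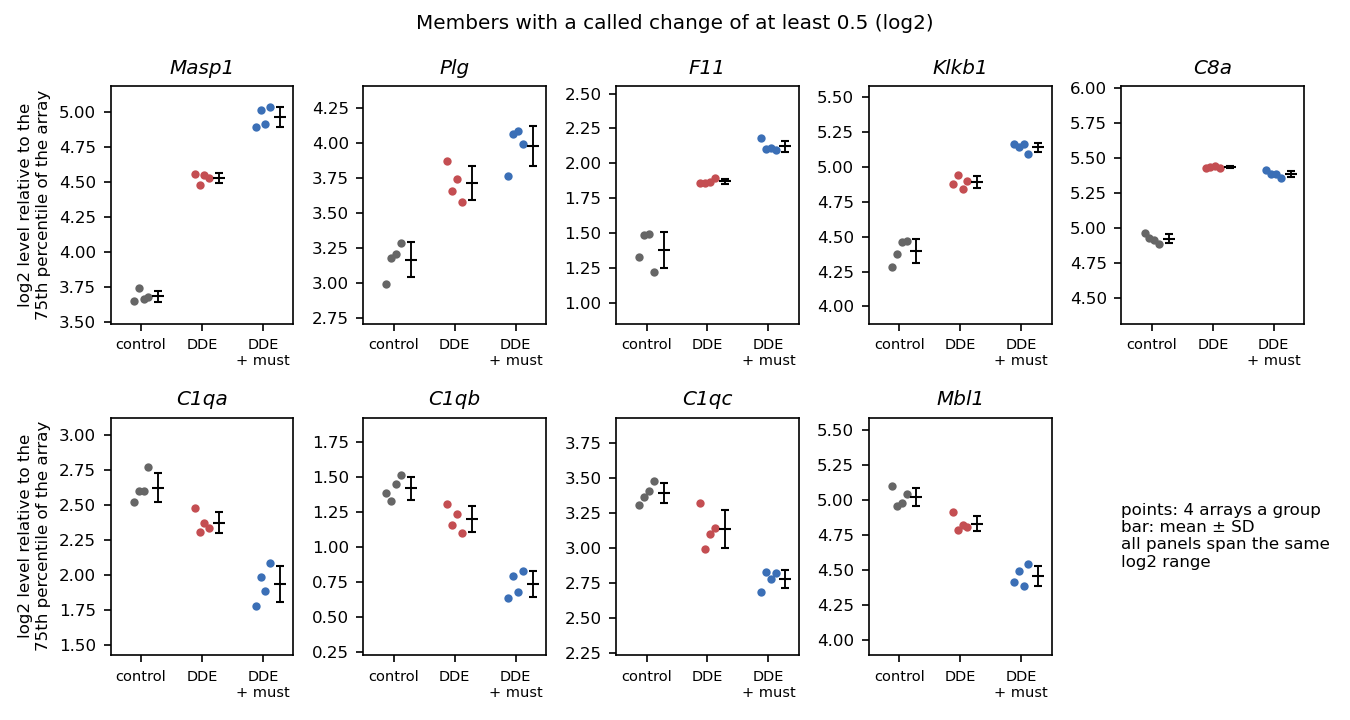
The 9 members with a called change of at least 0.5 (log2), on each of the 4 arrays of a group, with the mean and SD beside them. Every panel spans the same log2 range. Masp1, F11 and Klkb1 show 3 separate levels that rise from control to DDE to must. C1qa, C1qb and Mbl1 show 3 levels that fall in that order, and C8a a step from control to both other groups.

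Of the 4 genes of the convertases, C2 and Cfb were higher in both treated groups. C2, the protease of the classical convertase, lay between 5.20 and 5.26 in control and between 5.59 and 5.68 on the other 8 arrays. It changed by 0.41 (SE 0.038, adjusted p = 6.26e-06) in the DDE group and 0.40 (SE 0.038, adjusted p = 1.95e-06) in the must group, against control, with 0.00 between them, not called, where the other scalings gave 0.02 to 0.28 and 4 of them a higher call. Cfb, the protease of the alternative convertase, changed by 0.38 (SE 0.083, adjusted p = 0.00331) and 0.36 (SE 0.077, adjusted p = 0.00163) against control. The Cfb spot of DDE array 3 was an outlier by the scanner's mark and was left out, so 3 DDE arrays entered its fit. With that spot kept, Cfb changed by 0.22 in the DDE group against control and was not called (adjusted p = 0.183). Both genes kept these calls under the 5 other scalings. The other kept Cfb probe rose by 0.60 in the DDE group and 0.68 in the must group, against control, both called. The mean of the Cfb probes rose by 0.23 in the DDE group, not called, and by 0.52 in the must group, called.

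C3 is the component on which all routes converge. C3 read 9.33, 9.27, 9.29 and 9.25 in control, 9.52, 9.38, 9.37 and 9.39 in the DDE group and 9.33, 9.26, 9.38 and 9.29 in the must group. The DDE arrays were all above control, and DDE array 1 was the highest. C3 changed by 0.13 (SE 0.046, adjusted p = 0.0359) in the DDE group against control, and this call was lost when any of 5 arrays was left out, control 2, 3 or 4 or DDE 1 or 4, and with the slide as a block (adjusted p = 0.123), with no filter on dim probes, and in a fit of these groups alone. All 5 other scalings called this rise. C3 was not called in the must group against the DDE group (-0.10) or against control (0.03), but the other scalings gave -0.07 to 0.16 and 0.07 to 0.52, and 2 and 4 of them called it higher. C4b supplies the other part of the classical convertase. C4b read 6.53, 6.44, 6.44 and 6.44 in control, 6.56, 6.49, 6.45 and 6.37 in the DDE group and 6.27, 6.26, 6.26 and 6.36 in the must group. The must arrays were the lowest, with no overlap. The changes were 0.00 in the DDE group, not called, with 0.02 to 0.23 and 4 higher calls under the other scalings, and -0.18 (SE 0.049, adjusted p = 0.00686) in the must group, both against control. The must change turned to 0.20 to 0.30 and was called higher under 4 of the other scalings, and normexp alone kept it lower.

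Among the 5 genes of the membrane attack complex, 3 were higher and 1 lower in the DDE group against control. C8a, C8b and C8g encode the chains of C8, that of C8g being lipocalin-like. C8a read 4.96, 4.92, 4.91 and 4.89 in control, 5.42, 5.44, 5.44 and 5.43 in the DDE group and 5.42, 5.39, 5.39 and 5.36 in the must group. All 8 arrays of the treated groups were above control, by 1.43-fold in the DDE group (0.51, SE 0.035, adjusted p = 5.09e-07) and 1.38-fold in the must group (0.47, SE 0.035, adjusted p = 3.09e-07). C8b rose by 0.29 (SE 0.045, adjusted p = 0.000314) and 0.20 (SE 0.045, adjusted p = 0.00165). C8g went the other way, by -0.25 (SE 0.046, adjusted p = 0.000937) and -0.37 (SE 0.046, adjusted p = 1.89e-05), but both calls held in 1 of the 5 other scalings, which gave -0.24 to -0.02 and -0.33 to 0.06. Between the treated groups C8g changed by -0.12 (SE 0.046, adjusted p = 0.044), a call lost when control array 1, 2 or 4, DDE array 1, 3 or 4 or must array 1, 3 or 4 was left out, with no filter on dim probes, and in a fit of these groups alone, and 2 of the other scalings called it higher. The rises of C8a and C8b were called in all 5.

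C9 forms the ring of the complex. C9 read 6.37, 6.36, 6.35 and 6.30 in control, 6.65, 6.62, 6.53 and 6.50 in the DDE group and 6.33, 6.30, 6.34 and 6.25 in the must group. The DDE arrays were above all others and the must arrays overlapped control. C9 was 1.18-fold higher in the DDE group than in control (0.23, SE 0.045, adjusted p = 0.00127) under every scaling. It was lower in the must group than in the DDE group by 0.27 (SE 0.045, adjusted p = 0.00044), which 1 of the 5 other scalings kept, with values of -0.25 to 0.07, and the must group differed from control by -0.04, not called. Under 4 of the other scalings the must group was called higher than control, at 0.33 to 0.45 for C9. C6, the dimmest member, was not called in any comparison (0.26, -0.19 and 0.07), and its DDE arrays spread from -1.90 to -1.40. It was called higher in the DDE group against control under 4 of the other scalings (0.16 to 0.49). Of the 2 inhibitors, Cfi, the protease that inactivates C3b and C4b, fell by 0.26 (SE 0.048, adjusted p = 0.000984) in the must group against the DDE group, with -0.24 to 0.02 under the other scalings and 1 call among them. Against control Cfi was 0.07 in the DDE group, not called, and -0.19 in the must group, called lower, and 4 of the other scalings called it higher in each (0.06 to 0.30 and -0.18 to 0.22). Serping1, which encodes C1 inhibitor, was not called, with 0.15 (SE 0.058, adjusted p = 0.0512) in the DDE group and 0.04 in the must group, against control. All 5 other scalings called it higher in the DDE group (0.17 to 0.38) and 4 in the must group (0.10 to 0.51).

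**Figure D4:**
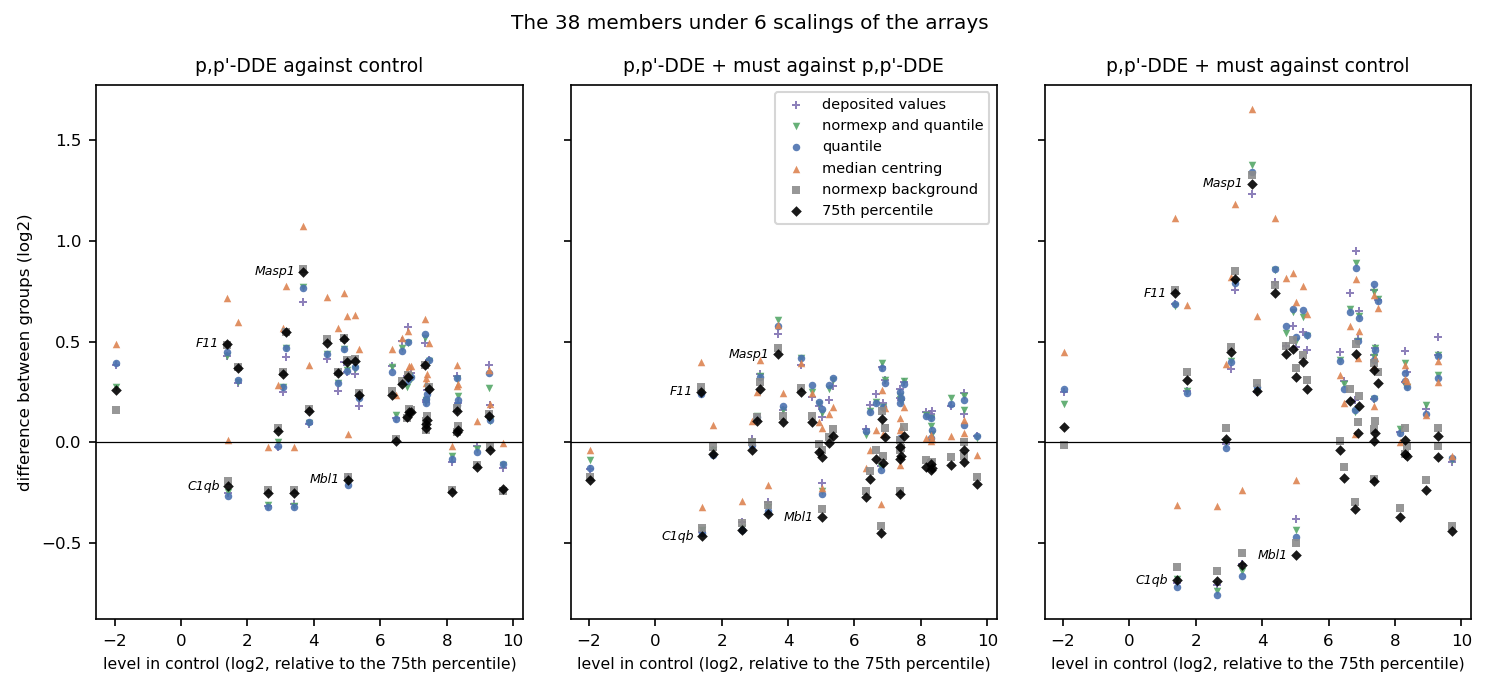
The log2 difference between groups for each of the 38 members, under the 75th percentile (black) and 5 other scalings, against the level in control. In the middle panel most of the bright members on the right lie below 0 in black and grey and above 0 with quantile normalisation or the deposited values, while Masp1 and F11 stay above 0 and C1qb and Mbl1 below it.

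The contact system, which starts the intrinsic route of coagulation and releases bradykinin, held 3 of the members that rose. F11 encodes factor XI, the protease that activates factor IX. F11 read 1.33, 1.49, 1.49 and 1.23 in control, 1.86, 1.86, 1.87 and 1.90 in the DDE group and 2.18, 2.10, 2.11 and 2.10 in the must group. Klkb1 encodes plasma prekallikrein, which activates factor XII and cuts kininogen. Klkb1 read 4.29, 4.37, 4.46 and 4.47 in control, 4.88, 4.94, 4.84 and 4.90 in the DDE group and 5.16, 5.14, 5.16 and 5.09 in the must group. For both genes the 3 groups did not overlap, with must highest. F11 was 1.40-fold higher in the DDE group than in control (0.49, SE 0.059, adjusted p = 4.68e-05) and 1.67-fold higher in the must group (0.74, SE 0.059, adjusted p = 5.14e-07), and Klkb1 1.41-fold (0.49, SE 0.049, adjusted p = 9.7e-06) and 1.67-fold (0.74, SE 0.049, adjusted p = 1.04e-07). The must group exceeded the DDE group by 0.25 (SE 0.059, adjusted p = 0.00442) for F11 and 0.25 (SE 0.049, adjusted p = 0.00138) for Klkb1. These calls held under all 24 alternative settings tried, and within slides the must group exceeded the DDE group by 0.24 to 0.32 and by 0.22 to 0.32.

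F12, factor XII, rose by 0.32 (SE 0.059, adjusted p = 0.000888) in the DDE group and 0.44 (SE 0.059, adjusted p = 3.93e-05) in the must group, against control. Its DDE arrays ranged from 6.96 to 7.26, so the must group, from 7.23 to 7.32, overlapped them and the 0.11 between these groups was not called, though 4 of the other scalings called it higher (0.15 to 0.40). Kng1 encodes kininogen, the source of bradykinin and the cofactor of the contact proteases. It fell, where the other contact genes rose, by 0.44 (SE 0.098, adjusted p = 0.00172) in the must group against control. Normexp background correction kept this call, and the scalings gave -0.42 to -0.07. DDE array 1 read 9.23 and stood apart from the other 3 DDE arrays, which lay between 9.53 and 9.58.

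Of the 4 procoagulant proteases whose function needs vitamin K, F7, F9 and F2 were higher in the DDE group than in control. F9, factor IX, ranged from 4.98 to 5.04 in control, from 5.37 to 5.46 in the DDE group and from 5.30 to 5.36 in the must group, and changed by 0.40 (SE 0.037, adjusted p = 6.18e-06) and 0.32 (SE 0.037, adjusted p = 9.84e-06) against control. F7, the factor that tissue factor binds, rose by 0.34 (SE 0.086, adjusted p = 0.00655) and 0.45 (SE 0.086, adjusted p = 0.000617). F2 encodes prothrombin. F2 read 8.32, 8.34, 8.29 and 8.26 in control, 8.49, 8.44, 8.42 and 8.47 in the DDE group and 8.33, 8.29, 8.37 and 8.27 in the must group. The DDE arrays were the highest and the must arrays overlapped control, a difference of 0.01 that was not called but read 0.07 to 0.45 under the other scalings, 4 of which called it higher. F2 rose by 0.15 (SE 0.040, adjusted p = 0.00769) in the DDE group and fell by 0.14 from the DDE to the must group (adjusted p = 0.0122), but that fall was kept under none of the 5 other scalings (-0.10 to 0.12). F10, where both routes meet, was not called, with 0.09, -0.09 and 0.00 in the 3 comparisons. The other scalings gave 0.10 to 0.32, -0.04 to 0.22 and 0.06 to 0.43, and 4, 3 and 4 of them called it higher.

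F5, the cofactor of factor Xa, rose by 0.34 (SE 0.091, adjusted p = 0.00854) in the DDE group and 0.44 (SE 0.091, adjusted p = 0.000986) in the must group, against control, under every scaling. F13b, the carrier chain of the enzyme that crosslinks fibrin, had changes of 0.05, -0.04 and 0.02 and no call, and median centring alone called it higher in both groups against control. Its arrays overlapped between all groups, from 2.85 to 3.10.

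The 3 chains of fibrinogen, whose genes lie in a cluster on chromosome 3, did not change together. Fga read 3.79, 3.84, 3.82 and 3.94 in control, 4.26, 3.89, 3.94 and 3.93 in the DDE group and 3.92, 4.21, 4.02 and 4.26 in the must group. Fgb read 9.35, 9.31, 9.21 and 9.32 in control, 9.26, 9.32, 9.28 and 9.19 in the DDE group and 9.21, 9.22, 9.25 and 9.22 in the must group. Fgg read 8.98, 8.94, 8.89 and 8.88 in control, 8.79, 8.78, 8.82 and 8.79 in the DDE group and 8.68, 8.66, 8.68 and 8.71 in the must group. Fgb overlapped between all groups, Fgg fell in steps without overlap, and Fga overlapped between all groups and was highest on DDE array 1 and on must arrays 2 and 4. Fgg changed by -0.13 (SE 0.037, adjusted p = 0.0153) in the DDE group against control and -0.11 (SE 0.037, adjusted p = 0.025) in the must group against the DDE group. The other scalings gave -0.07 to 0.22 for the latter, and 3 of them called it higher. That call was also lost with the slide as a block (adjusted p = 0.0704) and when DDE array 3 or must array 2 was left out. Against control, Fgg was called lower in the DDE group under 1 of the other scalings, and in the must group (-0.24 (SE 0.037, adjusted p = 0.000122)) 4 of them called it higher. Fgb was not called in any comparison (-0.04, -0.04 and -0.07), and was 0.30 to 0.43, and called higher, in the must group against control under 4 of the other scalings. Fga rose in the must group against control by 0.26 (SE 0.094, adjusted p = 0.0296), a call that was lost when control array 1, 2 or 3 or must array 2 or 4 was left out. All 5 other scalings kept that call. The 4 of them that called Fgb higher in this comparison also called Fgg higher, so all 3 chains rose under these.

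Plg encodes plasminogen, the precursor of the protease that dissolves fibrin. Plg read 2.99, 3.18, 3.20 and 3.29 in control, 3.87, 3.66, 3.74 and 3.58 in the DDE group and 3.77, 4.06, 4.09 and 3.99 in the must group. Control lay below both other groups, which overlapped on 1 must array. Plg was 1.46-fold higher in the DDE group than in control (0.55, SE 0.089, adjusted p = 0.000398) and 1.76-fold higher in the must group (0.81, SE 0.089, adjusted p = 6.95e-06), under every scaling. Its other kept probe fell, and the mean of both probes gave -0.33 and -0.59, both called lower. The 0.27 between the treated groups (adjusted p = 0.0277) was not called when DDE array 2 or 4 or must array 2, 3 or 4 was left out. Cpb2, whose product removes the plasminogen binding sites of fibrin, ranged from 6.78 to 6.84 in control, from 6.91 to 6.94 in the DDE group and from 6.44 to 6.52 in the must group. It rose by 0.12 (SE 0.036, adjusted p = 0.0146) in the DDE group against control and fell by 0.45 from the DDE to the must group (adjusted p = 1.74e-06). The fall was called in 3 of the 5 other scalings, all of which gave a lower value (-0.42 to -0.12). In the must group against control Cpb2 changed by -0.33 (SE 0.036, adjusted p = 6.72e-06), called lower. That change turned sign among the other scalings (-0.30 to 0.21). Quantile normalisation, alone or with normexp, and the deposited values called it higher (0.15 to 0.21). Serpinf2, the inhibitor of plasmin, was not called (0.11, -0.07 and 0.04). The other scalings gave 0.13 to 0.34, -0.03 to 0.22 and 0.10 to 0.47, and 5, 3 and 4 of them called it higher.

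Of the 4 anticoagulants, Pros1, Serpind1 and Proc were higher in both treated groups than in control. Pros1, protein S, the cofactor of activated protein C, rose by 0.37 (SE 0.069, adjusted p = 0.000969) in the DDE group and 0.31 (SE 0.069, adjusted p = 0.00161) in the must group. Serpind1, heparin cofactor II, which inhibits thrombin, rose by 0.26 (SE 0.057, adjusted p = 0.00275) and 0.29 (SE 0.057, adjusted p = 0.000698). Proc, protein C, which inactivates the cofactors V and VIII, rose by 0.15 (SE 0.054, adjusted p = 0.036) and 0.18 (SE 0.054, adjusted p = 0.0113), and its call in the DDE group was lost when control array 1 or 3 or DDE array 1 or 2 was left out, with no filter on dim probes, and in a fit of these groups alone. Serpinc1 encodes antithrombin. Serpinc1 read 8.41, 8.39, 8.37 and 8.20 in control, 8.33, 8.39, 8.43 and 8.48 in the DDE group and 8.38, 8.19, 8.33 and 8.21 in the must group. The groups overlapped, and no change was called (0.06, -0.13 and -0.07), although 4 of the other scalings gave 0.27 to 0.35, called higher, in the must group against control. In the DDE group against control 4 of them called it higher as well (0.08 to 0.29). None of these anticoagulants was called between the must and DDE groups, where 4 of the other scalings called Proc (0.07 to 0.31) and Serpind1 (0.07 to 0.30) higher.

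Of the 38 members, 12 were read by more than 1 kept probe. For Masp1, Plg, C3, C4b, Fga, Kng1 and Serpinc1 the probes differed in call or direction against control. Of the 4 kept Masp1 probes, the pair nearest the 3' end rose by 0.85 and 0.89 in the DDE group against control, a probe farther upstream rose by 0.18, and the most upstream fell, by 0.28 (adjusted p = 0.00961, over all kept probes). These 4 probes changed by 1.28, 1.27, 0.42 and -0.65 in the must group against control. The printed probe is the dimmer of the rising pair, with the change of 0.89. Plg's other probe, designed on a separate cDNA, fell by 1.20 and 2.00 against control in the DDE and must groups, opposite to the probe printed above.

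The printed C3 probe rose by 0.33 in the DDE group and 0.32 in the must group, where the brighter one changed by 0.13 and 0.03. The printed C4b probe likewise rose by 0.29 and 0.23, where the brighter one changed by 0.00 and -0.18. Fga's downstream probe, the dimmer of the pair, fell by 0.33 in the DDE group (adjusted p = 0.00093) and changed by -0.09 with must, not called. For Kng1 the printed probe changed by 0.03 and -0.23, the brightest by -0.23 and -0.44, and the dimmest, designed on another transcript of the gene, rose by 0.33 and 0.34. The other Serpinc1 probe was -0.22 and 0.18 from control, not called, and was higher in the must group than in the DDE group by 0.40 (adjusted p = 0.0113). The probes of C8a, C8b, Cfb, Masp2 and Pros1 agreed in direction against control. Whether the disagreeing probes read different transcripts or hybridise differently to Mus spretus RNA was not tested.

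**Figure D5:**
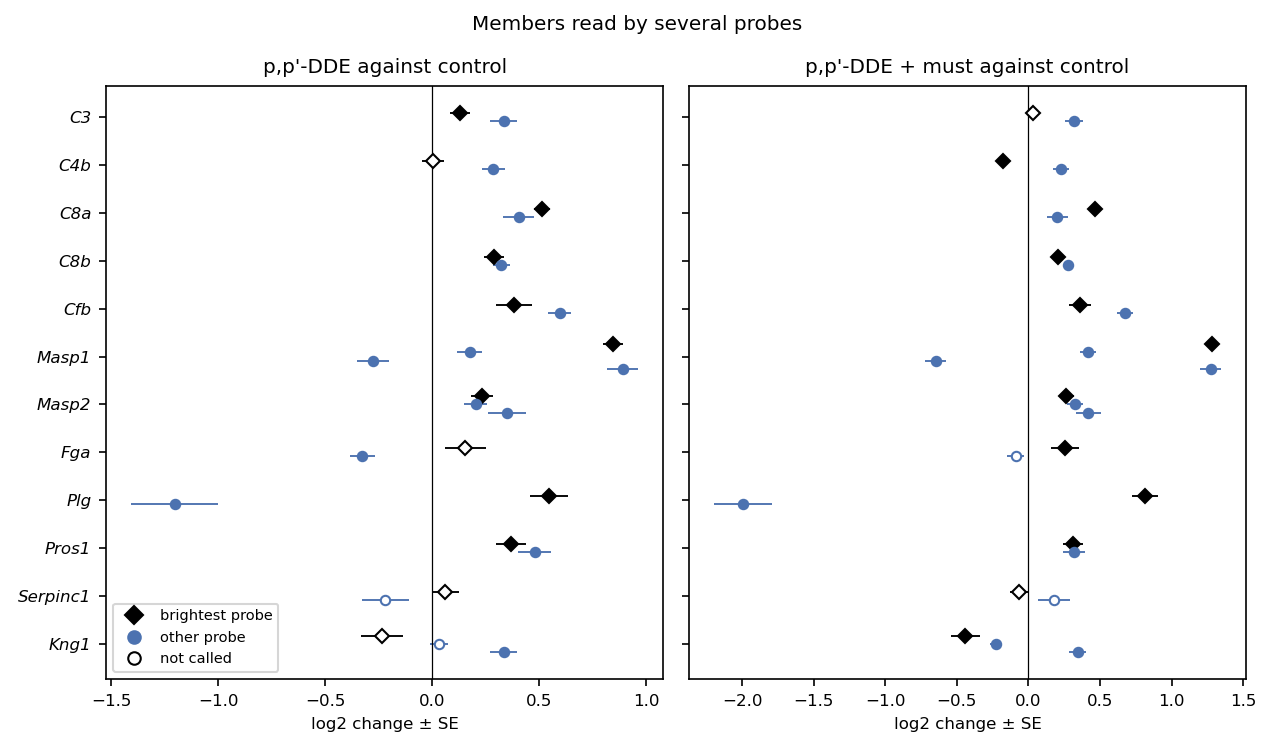
The log2 change from control, with its SE, of each kept probe of the 12 members with more than 1, in the DDE group (left) and the must group (right). Black diamonds are the brightest probe, which stands for the gene, blue circles the others, and open symbols were not called. Plg and Masp1 each have a probe to the left of 0 while the brightest lies to the right.

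Of 27 other complement genes tested, 6 were higher and 9 lower in the DDE group against control, 4 and 13 in the must group against the DDE group, and 7 and 13 in the must group against control. These are 22.2% and 33.3%, 14.8% and 48.1%, and 25.9% and 48.1% of the list, where 24.3% and 25.9%, 20% and 29.7%, and 31.8% and 39.2% of all genes were higher and lower. Under all 5 other scalings 6 and 4, 3 and 5, and 7 and 8 of these calls held. Cfd, factor D, the protease that cuts factor B and a product of fat cells, fell most in the DDE group, by 2.51, and rose by 0.95 from the DDE to the must group. The adipocyte markers, of which Cfd is one, were lower in 5 and higher in 2 of 9 in the DDE group against control. C1rb, a protease of the C1 complex with a close copy in C1ra, rose by 0.67 (SE 0.080, adjusted p = 4.5e-05) in the DDE group. C5ar2, a receptor of C5a, fell by 0.68 and Cd93 by 0.44. From the DDE to the must group Fcna, the macrophage lectin ficolin A, changed by -0.57 (SE 0.070, adjusted p = 5.13e-05), C4bp, an inhibitor of the classical convertase, by -0.48 and Cfhr2, a relative of factor H, by -0.44, which 3 of the 5 other scalings kept. Between the must group and control Cd59a, which blocks the membrane attack complex, fell by 0.62 and the collectin Colec10 by 0.68.

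Of 27 other coagulation genes, 10 were higher and 2 lower in the DDE group against control, 6 and 6 in the must group against the DDE group, and 11 and 6 in the must group against control. These are 37% and 7.41%, 22.2% and 22.2%, and 40.7% and 22.2% of the list, beside the same shares of all genes. Under all 5 other scalings 9 and 1, 4 and 3, and 9 and 2 held. Lman1, the cargo receptor that carries factors V and VIII out of the endoplasmic reticulum, rose by 0.48 (SE 0.049, adjusted p = 1.27e-05) in the DDE group against control and 0.33 (SE 0.049, adjusted p = 0.000183) in the must group against the DDE group. Plau, urokinase, fell by 0.51 and F2r, a thrombin receptor, rose by 0.29 in the DDE group. From the DDE to the must group F8, factor VIII, rose by 0.27, Tfpi, the inhibitor of the tissue factor route, fell by 0.38, and Kng2, a close relative of Kng1, fell by 0.28, the last called in 2 of the 5 other scalings.

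Vitamin K-dependent factors are completed by gamma-carboxylation. Of 8 genes of that step, 4 were higher and 1 lower in the DDE group against control, 2 and 3 in the must group against the DDE group, and 3 and 2 in the must group against control. As shares these are 50% and 12.5%, 25% and 37.5%, and 37.5% and 25%. Of all genes, 24.3% and 25.9%, 20% and 29.7%, and 31.8% and 39.2% were higher and lower. Under all 5 other scalings 4 and 1, 2 and 0, and 3 and 1 of the calls among these 8 genes held. Ggcx, the carboxylase, rose by 0.38 (SE 0.060, adjusted p = 0.000297) in the DDE group and 0.58 (SE 0.060, adjusted p = 4.09e-06) in the must group, against control. Nqo1, a quinone reductase, rose by 0.27 in the DDE group and Calu, calumenin, by 0.48 from the DDE to the must group. Vkorc1, the reductase that warfarin blocks, changed by -0.25 from the DDE to the must group, with -0.20 to 0.13 under the other scalings. Mgp, a matrix protein that is itself carboxylated, fell by 0.49 and 0.74 against control.

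Of 20 transcription factors of hepatocyte genes, 11 were higher and 2 lower in the DDE group against control, 5 and 6 in the must group against the DDE group, and 12 and 5 in the must group against control. As shares these are 55% and 10%, 25% and 30%, and 60% and 25%. Of all genes, 24.3% and 25.9%, 20% and 29.7%, and 31.8% and 39.2% were higher and lower. Under all 5 other scalings 10 and 0, 5 and 2, and 12 and 2 of the calls among these 20 factors held. In the DDE group Creb3l3 rose by 0.46 (SE 0.074, adjusted p = 0.000359), Onecut1 by 0.37, Cebpa by 0.35 and Foxa1 by 0.34. From the DDE to the must group Cebpd, a C/EBP factor of the acute-phase response, fell by 1.22 (SE 0.055, adjusted p = 1.52e-08), and Nr1i3, the xenobiotic receptor CAR, by 0.63. In the same comparison Nr0b2, the corepressor SHP, rose by 0.52 and Foxa2 by 0.48. These 8 changes were called under all 5 other scalings.

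Of 26 acute-phase genes, most of them secreted by hepatocytes, 15 were higher and 5 lower in the DDE group against control, 2 and 20 in the must group against the DDE group, and 8 and 15 in the must group against control. As shares these are 57.7% and 19.2%, 7.69% and 76.9%, and 30.8% and 57.7%. Of all genes, 24.3% and 25.9%, 20% and 29.7%, and 31.8% and 39.2% were higher and lower. Under all 5 other scalings 13 and 1, 2 and 14, and 8 and 9 of the acute-phase calls held. The median change of the acute-phase genes was 0.23, -0.41 and -0.31 in these comparisons, where that of the members was 0.15, -0.08 and 0.04. Under the other scalings it was 0.23 to 0.46, -0.38 to -0.22 and -0.27 to 0.06 for the acute-phase genes. For the members it was 0.16 to 0.38, -0.04 to 0.17 and 0.09 to 0.44. In the DDE group Orm3 rose by 1.84, Lcn2, lipocalin 2, by 1.78, Lbp, the lipopolysaccharide-binding protein, by 1.27 and Il1rn, the interleukin-1 receptor antagonist, by 1.36. From the DDE to the must group Lcn2 fell by 2.81, the fibrinogen-like Fgl1 by 2.21, and the serum amyloids Saa1 and Saa2, close copies whose probes may read both, by 2.75 and 3.04. Apcs, serum amyloid P, fell by 1.23 in the must group against control. The difference between the acute-phase genes and the members was not tested.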

How the data were processed

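Liver RNA was measured on 12 one-colour Agilent arrays, 4 in each of 3 groups taken from the labels. The deposited scanner files hold background-subtracted intensities, which the authors' scanner software, Agilent Feature Extraction 11.5.1.1 per the submitters' processing notes, wrote for 62976 spots an array with flags for background, saturation and outliers. The authors also deposited log2 values, for which those notes name RMA and limma; they followed the scanner's log2 intensities with correlations of 0.995 to 0.996 and medians of 5.32 to 5.35 on each array, and their exact centring stays unknown.

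From the intensities, log2 values were taken relative to each array's 75th percentile, control spots (3671) and outlier spots (102 to 177 an array) were left out, and spots of a probe were averaged. Probes well above background on every array of at least 1 group were kept (27098 of 56605), and the brightest stood for its gene. All 18678 genes were fitted together with limma 3.58.1 in R 4.3.3 (files were read with the package data.table, version 1.17.8), with the group as the factor and 9 residual degrees of freedom. The p-values were adjusted by the Benjamini-Hochberg method over all genes, or over all kept probes for single probes. The fit was tested on simulated data. The number of arrays limits the precision.

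Members with a change of at least 0.5 (log2) in a called comparison, and C3, C4b, C9, the mannose-binding lectins, fibrinogen, F2 and Serpinc1 whatever their values, were given in full; from the other lists up to 4 genes with the smallest p in a comparison were named. A result among the other coagulation genes is not reported here. The members and lists were chosen with earlier results of these data known. The other settings tried are given below with their effect.

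The main fit did not pair the arrays by the labels' replicate numbers. Deviations of arrays with the same number correlated at -0.37 to 0.13, and those on the same slide at -0.11 to 0.35. With so few arrays these ranges cannot show whether a pairing exists.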

Additional observations from a re-analysis of the deposited data

Results flagged for a closer look

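Among the 114 sets formed by the 38 members and 3 groups, 7 held an array that stood apart from the other 3 of its group by Dixon's criterion, which chance meets in about 1 set of 20. The set of Cfb in the DDE group lacks a value and was not examined. DDE array 1 accounted for 3 of the 7, being highest for C3 at 9.52 and for Fga at 4.26, and lowest for Kng1 at 9.23 (log2 level). Control array 1 was highest for C4b at 6.53, and must array 4 was highest for C4b in its group at 6.36. Control array 3 was lowest for Masp2 at 5.28. Must array 1 was highest for F11 at 2.18. Without DDE array 1 the rise of C3 in the DDE group against control was not called, while the calls for Masp2 and F11 were kept when the array in question was left out.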

How the results depend on the processing

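Counts of members called higher and lower in the DDE group against control were 20 and 6, and 31 and 0 with median centring. Between the must and DDE groups they were 4 and 11, against 20 and 5 with quantile normalisation, 22 and 4 with normexp and quantile normalisation, 11 and 5 with median centring and 23 and 4 with the deposited values. Between the must group and control they were 17 and 10, against 30 and 4, 30 and 4, 31 and 4, and 30 and 4. The genes called numbered 9379, 9286 and 13254 in the 3 comparisons, and without a filter on dim probes the latter pair became 14167 and 21774. Leaving out any 1 array gave 8419 to 9375, 8155 to 9324 and 12588 to 13503 genes, with 18 to 21, 3 to 5 and 16 to 17 members higher and 6 to 7, 9 to 11 and 10 lower. With the replicate number as a block, 19, 3 and 16 members were higher and 6, 9 and 10 lower. In that fit 8729, 8562 and 12903 genes were called. It lost the calls of Proc (adjusted p = 0.0613) in the DDE group and Fga (0.0564) in the must group, both against control. Those of C8g (0.0915), Fgg (0.0629) and Plg (0.0512) between the treated groups were lost too. The labels do not say what arrays with the same number share. With the slide as a block 9676, 9212 and 13262 genes were called. The cause of each change of sign listed here was not tested. Changes of sign are listed where the value, or the one it turned from, was called; sign changes with neither called are left out. In the DDE group against control, such changes with median centring were C1qb 0.0087, Mbl1 0.041, and Fgg 0.10. With median centring and the deposited values it was Fgb 0.19 and 0.19. In the must group against the DDE group, such changes with quantile normalisation, normexp with quantile normalisation, median centring and the deposited values were C2 0.28, 0.26, 0.14 and 0.21, C8g 0.13, 0.13, 0.022 and 0.15, F2 0.022, 0.079, 0.0044 and 0.12, and Fgg 0.19, 0.22, 0.031 and 0.18. With normexp with quantile normalisation and the deposited values it was C3 0.16 and 0.14. With quantile normalisation, normexp with quantile normalisation and the deposited values they were C4b 0.15, 0.16 and 0.18, C8a 0.20, 0.19 and 0.18, C8b 0.20, 0.20 and 0.24, and C9 0.054, 0.034 and 0.067. In the same order Cfb had 0.25, 0.23 and 0.26, Cfi 0.023, 0.0093 and 0.013, Serping1 0.17, 0.18 and 0.19, and F9 0.16, 0.14 and 0.13. Likewise F10 had 0.20, 0.22 and 0.22, Fgb 0.21, 0.23 and 0.24, and Serpinf2 0.22, 0.20 and 0.21. With the deposited values it was Serpinc1 0.16. In the must group against control, such changes with quantile normalisation, normexp with quantile normalisation, median centring and the deposited values were C4b 0.27, 0.29, 0.20 and 0.30, C8g 0.044, 0.065, 8.04e-04 and 0.052, C9 0.40, 0.41, 0.33 and 0.45, and Cfi 0.22, 0.21, 0.18 and 0.21. In the same order Mbl2 had 0.30, 0.28, 0.31 and 0.30, Fgb 0.32, 0.33, 0.30 and 0.43, Fgg 0.14, 0.19, 0.13 and 0.16, and Serpinc1 0.27, 0.27, 0.30 and 0.35. Likewise Cpb2 had 0.16, 0.15, 0.042 and 0.21. With the mean of a gene's probes, Plg changed by -0.33, -0.26 and -0.59 in the 3 comparisons, and C4b by 0.024 in the must group against control. The calls of Masp1, F11 and Klkb1 in each comparison, and those of the C1q subunits and Mbl1 in both comparisons of the must group, were kept under all 24 settings tried. All member probes used were well above background on every array and none was saturated. Whether a low level limited the calls of dim members was not tested.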
